A study of Mus musculus with 2 samples.

Results

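The genes of MHC class II antigen presentation were described in a pair of microarrays of TR1 cells (type 1 regulatory T cells, CD4 T cells that make IL-10) from mouse small intestine. There were 9 genes listed: H2-Aa, H2-Ab1, H2-Eb1, H2-DMa, H2-DMb1, H2-Oa, H2-Ob, Cd74 and Ciita. A gene was represented by a probe set (the group of array probes read as 1 value) annotated to that gene symbol alone, and by the one with the highest mean where there were several. This gave 8 members of the 19937 genes with a value, each with 1 such probe set. H2-DMb1 had no probe set of its own, because the only one that lists it also lists H2-DMb2. The genes were chosen because several were brighter in the impaired sample, so their differences between the arrays are a description and were not tested.

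The first sample, called wildtype, came from mice whose genotype is given as wildtype. The second, called impaired, came from mice given as CD4-DNIL-10R transgenic, a dominant-negative IL-10 receptor driven by the Cd4 gene's regulatory elements, so the transgene is aimed at T cells. All mice were injected in the peritoneum with anti-CD3 antibody (clone 2C11, 15 μg) 2 times, every other day, and were killed either 4 or 48 hours later. Which of these times applies to which sample, the strain, age and number of mice, and the way the cells were sorted are not stated in the labels. Each value is a log2 RMA expression value of 1 array per genotype. Without replicates the differences have no error and no p-value.

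MHC class II molecules hold peptides from ingested proteins at the surface of antigen-presenting cells, where CD4 T cells recognise them. An alpha and a beta chain assemble on the invariant chain (Cd74), which blocks the groove until H2-DM exchanges its last fragment for a peptide, a step that H2-DO restrains. Ciita, the class II transactivator, switches these genes on together. It does not bind DNA itself but joins the RFX, CREB and NF-Y factors on a shared X and Y box before each gene. B cells, dendritic cells and macrophages carry class II, and enterocytes of the small intestine can carry it too. Mouse T cells, unlike human ones, are generally not regarded as making it on activation.

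X and Y boxes could be seen in the reference sequence before some of the listed genes. RefSeq's table of promoters (GRCm38.p6) held an entry for 6 of the 9 listed genes, H2-Aa, H2-Eb1, H2-DMa, H2-DMb1, H2-Oa and H2-Ob. H2-Ab1, Cd74 and Ciita were not among them. The 250 bases before each annotated start were searched on both strands for a core of the X box, CNNGNAAC (N is any base), and a core of the Y box, TGATTGG. The letters were chosen from the known boxes after these sequences had been read. The windows below show 20 bases on either side of the boxes, 5′ to 3′ on the gene's own strand. The X core and then the Y core are in capitals. These are the listed genes whose searched bases held both cores, a feature that the array did not use.
H2-Aa (chr17:34287847-34287927, minus strand): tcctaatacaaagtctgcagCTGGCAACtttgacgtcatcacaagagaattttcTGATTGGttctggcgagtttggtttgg
H2-Eb1 (chr17:34305753-34305832, plus strand): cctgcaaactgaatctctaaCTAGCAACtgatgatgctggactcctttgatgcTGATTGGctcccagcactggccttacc
H2-Oa (chr17:34092280-34092360, plus strand): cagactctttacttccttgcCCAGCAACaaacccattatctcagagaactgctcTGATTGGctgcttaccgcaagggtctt
H2-Ob (chr17:34238795-34238872, plus strand): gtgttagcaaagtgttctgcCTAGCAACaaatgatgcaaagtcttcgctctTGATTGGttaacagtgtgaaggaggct
H2-DMb1 (chr17:34153074-34153154, plus strand): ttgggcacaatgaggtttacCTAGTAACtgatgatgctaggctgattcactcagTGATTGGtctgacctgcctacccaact

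In these 5 promoters the X core came first and the Y core followed on the same strand. The cores began 34 bases apart in H2-Aa, H2-Oa and H2-DMb1, 33 in H2-Eb1 and 31 in H2-Ob. An X core followed by a Y core 15 to 45 bases on was present in 0.213% of all 32851 promoters of the table, against 33.3% for the X core alone and 7.23% for the Y core alone. These promoters include those of the class II genes. Since the pattern was drawn from the known class II boxes, its rarity elsewhere is a description and not a test. H2-DMa has 2 annotated starts, and neither window held a Y core, which says only that these letters are not in these windows. Of the other class II genes, H2-Eb2 held the pair, 33 bases apart, and H2-DMb2 held both cores outside that spacing. Apart from the class II genes, 58 genes held the pair in a promoter. Of these, 29 passed the floor on low values described below, and 0 of the 29 were 1.5-fold brighter in the impaired sample, where 5.89% of all genes past the floor were, with differences from -0.43 to 0.53 and a median of 0.01.

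**Figure D1:**
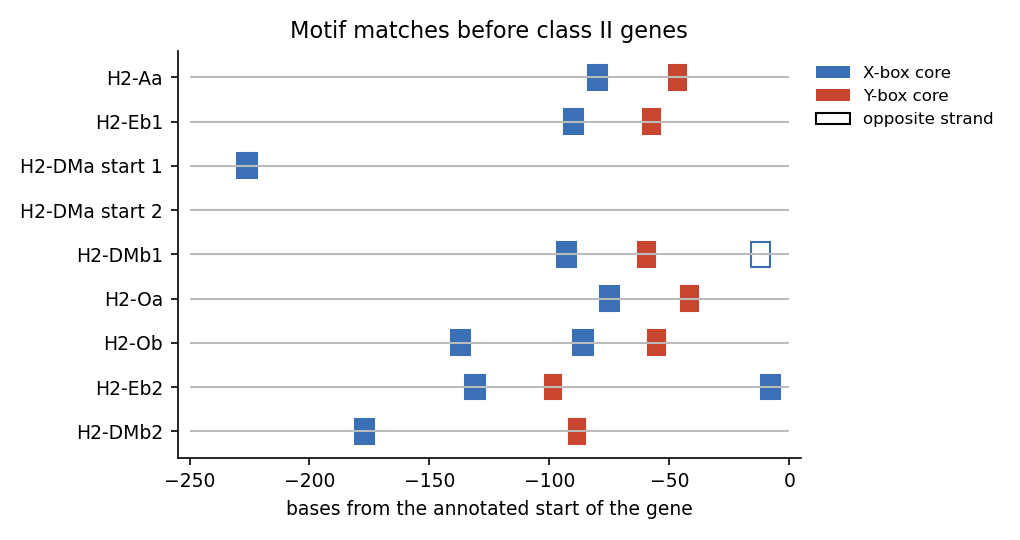
Positions of the X-box core (blue) and Y-box core (red) in the 250 bases before each annotated start of a class II gene, with open boxes for the opposite strand; the horizontal axis is bases from the start. H2-Aa, H2-Eb1, H2-DMb1, H2-Oa, H2-Ob and H2-Eb2 show an X core 31 to 34 bases before a Y core.

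Ciita was dim on both arrays. Its probe set stood at 6.07 on the wildtype array and 6.67 on the impaired array, a log2 difference of 0.60 (1.52-fold). Both values lay below 6.91, the median probe set by mean of the arrays, which served as the floor on low values. Ciita was therefore left out of every count over genes past the floor, and its fold is uncertain because RMA compresses differences at low signal. The probe set reads the gene as a whole and not the separate promoters from which Ciita is transcribed in different cells.

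The classical chains were all brighter in the impaired sample. H2-Aa, the alpha chain of I-A, stood at 8.85 on the wildtype array and 9.54 on the impaired array. Its partner H2-Ab1, the beta chain of I-A, stood at 9.43 and 10.23. H2-Eb1, the beta chain of I-E, stood at 8.68 and 9.67. The log2 differences were 0.69 for H2-Aa, 0.80 for H2-Ab1 and 0.99 for H2-Eb1, or 1.61-fold, 1.74-fold and 1.99-fold. The chains of I-A thus differed between the arrays by a like amount, and H2-Eb1 lay just short of 2-fold. In these bulk samples, more cells of a type and more RNA per cell cannot be told apart.

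Cd74, the invariant chain, had the largest difference of the members. It stood at 9.58 on the wildtype array and 10.74 on the impaired array, a log2 difference of 1.16 (2.23-fold). It ranked 87th from the top among the differences of the 11124 genes past the floor. H2-Eb1 ranked 167th, H2-Ab1 331st and H2-Aa 478th. Cd74 is not a class II gene by position, since it lies on a different chromosome from the H2 genes, but it is known to be switched on by the same transactivator.

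The accessory molecules of peptide loading did not differ alike. H2-DMa, the alpha chain of the peptide exchange factor H2-DM, stood at 9.25 on the wildtype array and 9.41 on the impaired array. Its log2 difference of 0.16 (1.12-fold) was the smallest of the members and ranked 3075th. H2-Oa, the alpha chain of the H2-DM inhibitor H2-DO, stood at 6.44 and 7.21, a difference of 0.77 (1.70-fold). Its partner H2-Ob stood at 6.97 and 7.49, a difference of 0.53 (1.44-fold). H2-Oa passed the floor through the impaired sample alone, so it had to differ to be counted, and H2-Ob lay close to the floor in the wildtype sample.

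**Figure D2:**
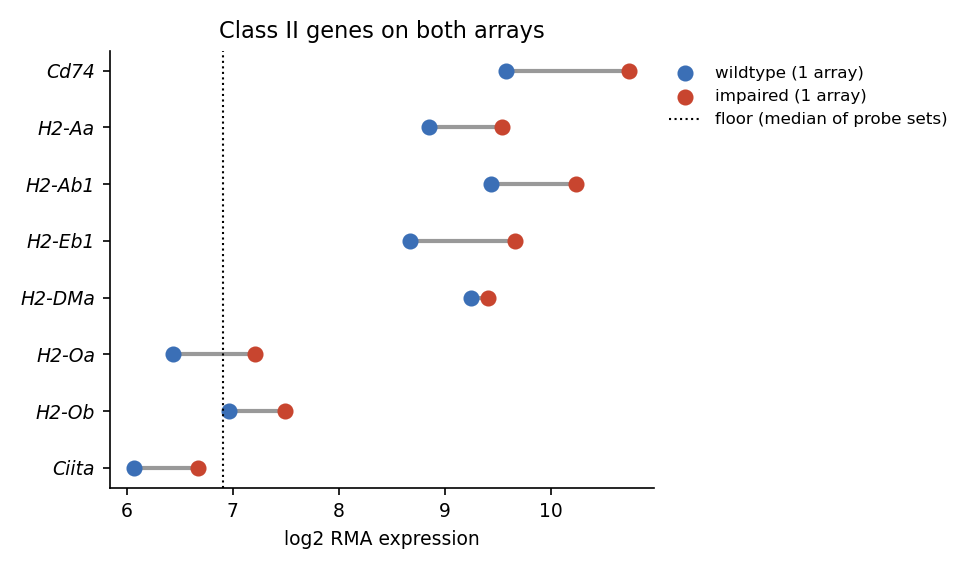
Log2 RMA expression of the 8 class II genes with a value, with 1 point for the wildtype array (blue) and 1 for the impaired array (red); the dotted line is the floor at 6.91. The gap is widest for Cd74 (9.58 against 10.74) and narrowest for H2-DMa (9.25 against 9.41), and both points of Ciita lie below the floor.

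Counted by size, 5 of the 7 members past the floor were at least 1.5-fold brighter in the impaired sample, where 5.89% of all 11124 genes past it were. A difference of 2-fold or more was seen in 1 member, Cd74, and in 1.46% of those genes. All 7 were above 0, where 50.2% of those genes were. Their median log2 difference was 0.77, beside 0.00 over all genes past the floor, whose middle 95% lay between -0.51 and 0.85. That median is the value of H2-Oa, also among the 5, which passed the floor through the impaired array alone. Nothing is read from these counts, because the same difference was used to choose the genes. Of the 9 listed genes, H2-DMb1 had no value and Ciita lay below the floor. Without the floor, 8 of 8 members were above 0 and 6 were 1.5-fold brighter, where 51.5% and 3.58% of all 19937 genes were.

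**Figure D3:**
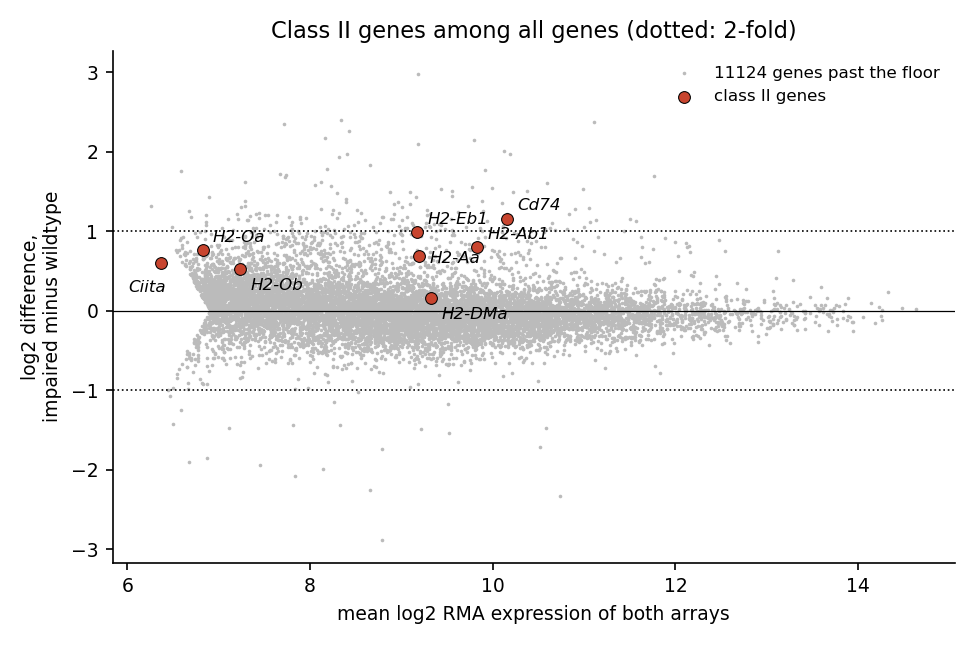
Log2 difference (impaired minus wildtype) against the mean log2 RMA expression of both arrays, with 11124 genes past the floor in grey, the 8 class II genes in red and dotted lines at 2-fold. Cd74 lies above the upper line at 1.16, H2-Eb1 just under it at 0.99, and H2-DMa within the main cloud at 0.16.

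The H2 members sit together on 1 chromosome with genes of other pathways between them, and most of those neighbours were nearly equal on the arrays. In reference order, Brd2, a chromatin reader, lies between H2-Oa and H2-DMa and differed by -0.03. Psmb9, Tap1, Psmb8 and Tap2, which make and carry peptides for class I, lie between the H2-DM genes and H2-Ob. Their log2 differences were -0.16, 0.16, -0.07 and 0.03. H2-Ob, H2-Ab1, H2-Aa and H2-Eb1 follow, with differences of 0.53 to 0.99. Next comes H2-Eb2, a beta chain gene, which differed by 0.52 with both values below the floor (6.27 and 6.79). H2-Ea, the alpha chain of I-E, stood at 5.37 and 5.49, also below the floor; it is annotated as a pseudogene in the C57BL/6J reference. Btnl2, a butyrophilin-like gene past the end of the class II genes, stood at 8.31 on the wildtype array and 8.97 on the impaired array, a difference of 0.66.

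**Figure D4:**
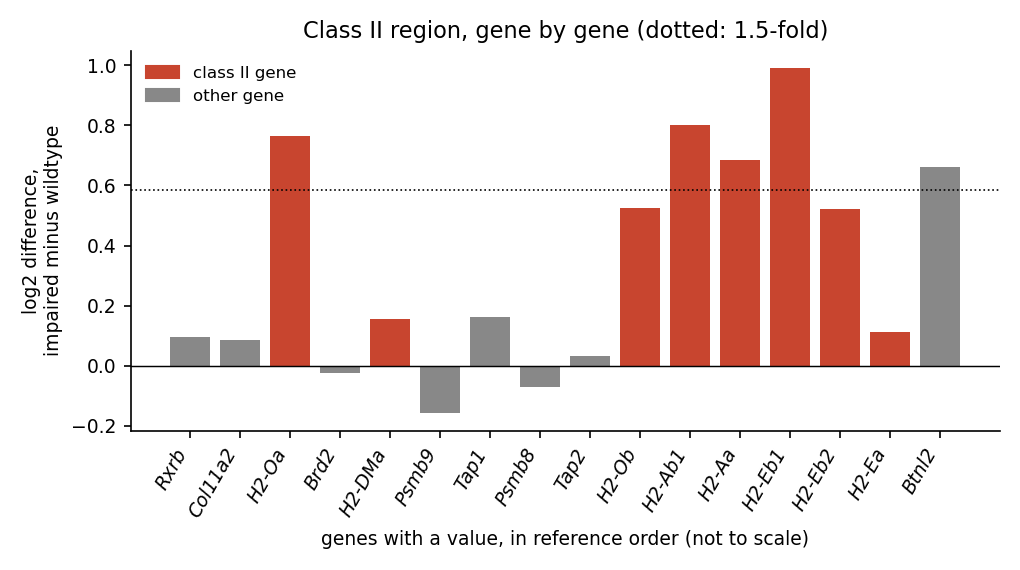
Log2 difference (impaired minus wildtype) of the genes with a value from Rxrb to Btnl2, in the order of the reference and not to scale, with class II genes in red, other genes in grey and a dotted line at 1.5-fold. The class I genes Psmb9, Tap1, Psmb8 and Tap2 lie between -0.16 and 0.16, and H2-Ob to H2-Eb1 beside them between 0.53 and 0.99.

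Genes that cut, load and move class II peptides differed in both directions. Ifi30, the thiol reductase GILT that unfolds antigens in the lysosome, stood at 9.70 on the wildtype array and 10.40 on the impaired array, a difference of 0.71. Lgmn, a lysosomal protease that cuts after asparagine, stood at 7.41 and 8.08, a difference of 0.67. Ctsh, a cathepsin, differed by 0.58, with its wildtype value below the floor. Ctsl, the cathepsin that cuts the invariant chain in thymic epithelium, stood at 8.63 and 8.21, a difference of -0.42. Ctss, which does so in B cells and dendritic cells, was nearly equal, at 10.11 and 10.06 (chosen after its values were seen). Of the 13 genes past the floor in this list of 14, 7 were above 0 and 6 below. Of the 13, 2 were 1.5-fold brighter and 0 were 1.5-fold dimmer, where 5.89% and 1.5% of all genes past the floor were, and the median difference was 0.08. Ctsh and Cd83 passed the floor through the impaired array alone.

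None of the factors that Ciita joins at the X and Y boxes, or their coactivators, differed by 1.5-fold. Nfyb, a subunit of the Y-box factor NF-Y, stood at 9.70 on the wildtype array and 9.13 on the impaired array, a difference of -0.57. Creb1, which binds the X box region, differed by -0.35, the NF-Y subunit Nfyc by -0.24 and the RFX subunit Rfxap by -0.21. The other RFX subunits, Rfx5 and Rfxank, differed by 0.12 and 0.15 (chosen after their values were seen). Of the 11 genes of this list, 6 were above 0 and 5 below, where 50.2% of all genes past the floor were above 0. Their median was 0.03. Of all genes past the floor, 5.89% were 1.5-fold brighter and 1.5% were 1.5-fold dimmer, so none in a list of 11 is close to those shares.

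Genes that induce or repress Ciita had a median difference of 0.23 over the 10 of 13 past the floor, 6 above 0 and 4 below. Ifngr2, the signalling chain of the interferon gamma receptor, stood at 9.64 on the wildtype array and 10.57 on the impaired array, and its difference of 0.93 was the only one of the 10 past 1.5-fold, a share close to the 5.89% of all genes past the floor. Irf8, a factor of B cells and dendritic cells, differed by 0.37, Usf1 by 0.30 and Irf4 by 0.28. Spi1, which encodes PU.1, differed by 0.79 with both values below the floor (5.95 and 6.74; chosen after its values were seen). Ifng, the cytokine that induces Ciita in many cells, stood at 12.50 and 12.29.

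Among 14 genes induced by interferon gamma with a value, 13 were above 0 and 2 were 1.5-fold brighter, where 50.2% and 5.89% of all genes past the floor were, with a median of 0.20. Nos2, the inducible nitric oxide synthase, differed by 1.21, Cxcl10 by 0.67, Ido1 by 0.44 and Irf1 by 0.28. Class I presentation genes had a median of -0.04 over the 16 of 23 past the floor, 7 above 0 and 9 below. Nlrc5, the class I counterpart of Ciita, stood at 11.37 on the wildtype array and 11.97 on the impaired array, a difference of 0.60, and was the only one of the 16 past 1.5-fold, again close to the 5.89% of all genes. Psmb10 differed by 0.35, Pdia3 by -0.25 and Erap1 by -0.24. The classical class I genes H2-K1 and H2-D1 had no probe set of their own.

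Costimulators that presenting cells show beside class II differed by less than 1.5-fold. Cd80 stood at 6.63 on the wildtype array and 7.08 on the impaired array, a difference of 0.46. Icosl differed by 0.36, Cd40 by 0.33 and Pdcd1lg2 by -0.20, and the median over 6 genes was 0.25 with 0 past 1.5-fold. Of all genes past the floor, 5.89% were 1.5-fold brighter and 1.5% were 1.5-fold dimmer, so 0 of 6 is close to those shares. Cd80, Icosl and Cd40 lay below the floor in the wildtype sample, so they had to differ to be counted, and the median rests partly on them. The receptors by which T cells touch class II were nearly equal. Cd4, the co-receptor, stood at 13.14 and 13.18, and Lag3, an inhibitory receptor for class II that also marks TR1 cells, at 11.41 and 11.36.

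The labelled cell type was checked against its markers. All 12 T cell markers with a value lay past the floor on both arrays, with differences from -0.23 to 0.24, led by Thy1 (0.24), Cd6 (-0.23), Icos (-0.22) and Cd3g (-0.19). The 10 TR1 markers ranged from -0.20 to 0.10, with Il10 at 12.94 on the wildtype array and 12.92 on the impaired array, and Prdm1 (-0.20), Cd226 (-0.13), Pdcd1 (-0.13) and Itga2 (0.10) differing most. Il10ra, the chain that the transgene is built to block, stood at 9.92 and 12.30, and whether its probe set reads the transgene is not known.

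Markers of cells that can carry class II, or that the sample could hold, differed to unequal degrees, and some lists held genes in both directions. Each list below is also given as a summed linear level, the sum over its genes of 2 to the power of the log2 value, in which the brightest probe sets weigh most. The class II sum was 3214 (wildtype) and 5574 (impaired).

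B cell markers were mostly dim on both arrays. Of 16 with a value, 11 lay below the floor on both, among them the defining markers Ms4a1 (CD20; 5.54 and 6.07), Cd79a (5.43 and 5.73) and Pax5 (6.09 and 6.32). Of the 16, 14 were above 0, where 51.5% of all genes without the floor were. The summed level was 2961 and 3560. The 5 past the floor had a median of 0.37, led by Blnk (0.99) and Cd79b (0.60), then Spib (0.37), which passed through the impaired array alone, and Pou2af1 (0.24). Cd72, the brightest marker of the list, was nearly equal (10.44 and 10.50, chosen after its values were seen). Cr2, below the floor on both arrays (6.41 and 6.18), was the only marker below 0. Over all 16 the median was 0.29. Plasma cell markers had a median of 0.36 over 6 of 8 genes, with Ighm at 1.06, Sdc1 at 0.62 and Derl3 and Txndc5 at 0.36 each; Derl3 passed the floor through the impaired array alone. Igha, past the floor on both arrays (9.87 and 9.63), differed by -0.24, and Jchain by 0.17. Mzb1 (6.52 and 6.42) and Tnfrsf17 (5.92 and 6.04) lay below the floor on both arrays and differed by -0.10 and 0.12. Over all 8 plasma cell markers the median was 0.26, and the summed level was 3153 and 3716.

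Dendritic cell markers differed little, and their defining genes were dim. Of 12, 8 lay below the floor on both arrays, among them Flt3 (5.93 and 6.12), Zbtb46 (6.25 and 6.49) and Clec9a (5.81 and 5.41). The 4 past it, Naaa (0.46), Itgax (0.34), Ly75 (-0.16) and Xcr1 (-0.03), had a median of 0.16. Over all 12 it was 0.11, and the summed level was 1637 and 1845. Of 15 macrophage markers all were above 0, where 51.5% of all genes without the floor were. Of the 15, 8 lay below the floor on both arrays, among them Adgre1 (F4/80, 5.08 and 5.24) and Csf1r (5.84 and 6.06). The 7 past it had a median of 0.72, led by Lyz2 (1.78), Tyrobp (1.03), Cd14 (0.98) and Mertk (0.72), but Cd14 and C1qa passed it through the impaired array alone. Cd68, the brightest marker of the list, was nearly equal (10.25 and 10.33), and Cx3cr1 differed by 0.12 (both chosen after their values were seen). Over all 15 the median was 0.21, and the summed level was 2398 and 3269. Lyz2 and Tyrobp are also made by neutrophils.

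Enterocyte markers were bright on both arrays and brighter in the impaired sample. All 20 past the floor, of 21 listed, were above 0, 18 were 1.5-fold brighter and 8 were 2-fold brighter, where 50.2%, 5.89% and 1.46% of all genes past the floor were. Their median was 0.90, and 0.81 over all 21. They were led by the brush-border enzyme sucrase-isomaltase, Sis (1.77), with Alpi (1.22), Slc5a1 (1.22) and Lct (1.19) next, and the summed level was 24849 and 44922. Neutrophil markers had a median of 1.84 over 9 of 13 genes, with Mmp8 (2.35), S100a8 (2.27), S100a9 (2.18) and Ngp (1.97) highest; Mmp8, Cxcr2 and Ltf passed the floor through the impaired array alone. Over all 13 the median was 1.21, with Elane (-0.04) and Mpo (-0.08) below 0, and the summed level was 1569 and 4626. Group 3 innate lymphoid markers gave 3 values, with Il23r at 0.59, Kit at 0.18 and the defining Ncr1 below the floor (5.35 and 5.21), and a summed level of 672 and 916. Stromal and endothelial markers had a median of 0.17 over 5 of 11 genes, with Dcn at 1.18, Pecam1 at 0.40, Col1a2 at 0.17 and Col3a1 at 0.16; Dcn and Col3a1 passed the floor through the impaired array alone. Over all 11 the median was 0.06, with 3 below 0, and the summed level was 1271 and 1496. The part of any of these cell types in the class II difference was not tested, and which cells gave the class II signal was not measured.

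**Figure D5:**
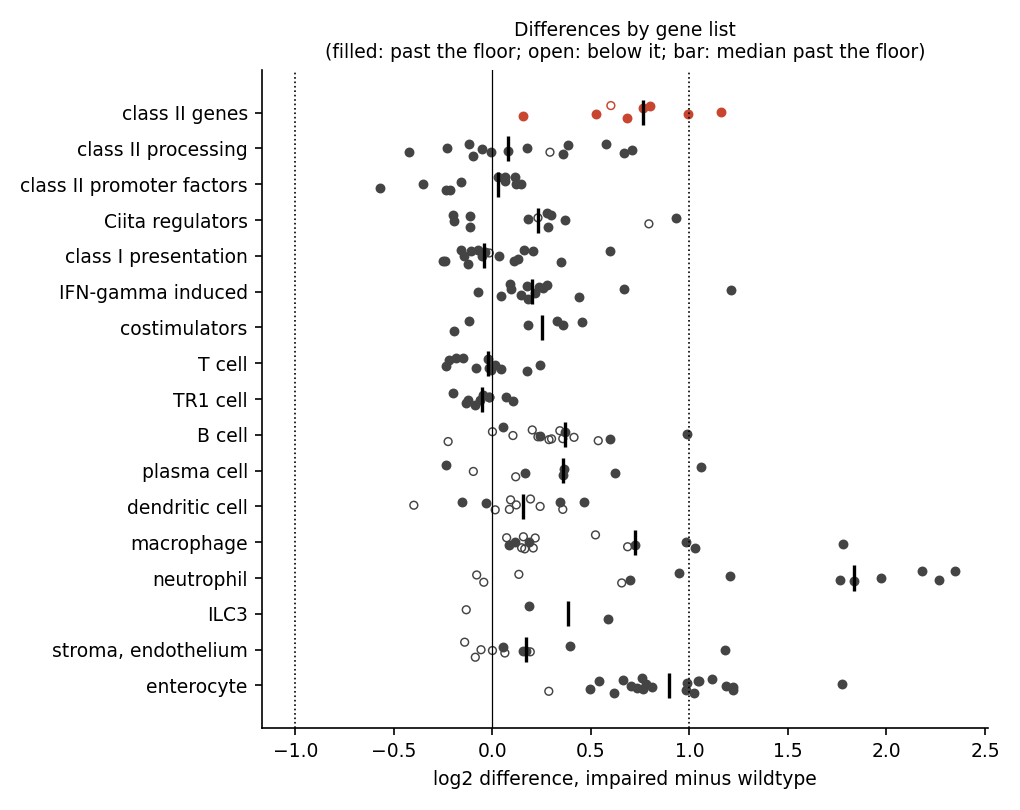
Log2 difference (impaired minus wildtype) of every gene with a value in each list, filled where the gene passed the floor and open where it did not, with a bar at the median of the filled points and dotted lines at 2-fold. The class II genes (red, median 0.77) lie to the right of the class I genes (-0.04), T cell markers (-0.02) and dendritic cell markers (0.16), and to the left of the enterocyte (0.90) and neutrophil markers (1.84). The macrophage median of 0.72 rests on the filled points, and is 0.21 with the open ones. The class II median is 0.73 with its open point, the enterocyte median 0.81 and the neutrophil median 1.21 with theirs.

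The genes whose difference was nearest to that of Cd74 were sought among the 2851 other genes past the floor with a mean of at least 10. Over 2 arrays a pattern is a single difference, so nearness means only the gap to 1.16. The cut on the mean left out dimmer genes with a like difference, such as Lct (1.19), Mmp9 (1.21), Ighm (1.06) and Tyrobp (1.03). All neutrophil markers were dimmer than the cut, so no cell type is read from the nearest genes. The nearest 5 were Mgam, a brush-border maltase (1.16), Pigr, which carries antibodies across epithelium (1.14), Smim24 (1.12), Anpep, aminopeptidase N (1.12), and Ckb, a creatine kinase (1.11).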

How the data were processed

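The authors deposited log2 expression values of 34760 probe sets for 2 samples, made with affy and RMA per the submitters' processing notes; RMA corrects the background, makes the distributions of the arrays equal and summarises the probes. No source used here names their versions, the build or the annotation. The columns had medians of 6.89 (wildtype) and 6.92 (impaired) and no centring per gene; a higher value is a brighter probe set. Scanner files and detection calls were not used. Having 1 array per genotype limits the precision.

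Probe sets were named through GEO's platform annotation: 21640 had 1 symbol, 1321 several and 11799 were not listed. Differences are impaired minus wildtype. A gene passed the floor when the brighter array reached 6.91. There was no test, and genes were counted by fold (2 or 1.5). The class II genes and the 19 lists (with the class II genes as 1 of them) were chosen with earlier results of these data known. Besides the members, up to 4 genes with the largest absolute difference past the floor were named per list, with Cd4, Lag3, Il10, Il10ra, the region's neighbours and the 5 genes nearest to Cd74; markers named as below the floor or as passing it through 1 array, Elane, Mpo, Igha, Jchain, Ifng and those marked so were chosen after their values were seen. Alternatives were loess centring, subtraction of the median difference, an offset of 32 on the linear scale, averaging each gene's probe sets, dropping the floor and raising it to the 75th percentile (8.86). Counting, centring and motif search were tested on simulated data. Values were computed in Python 3.11.15 with pandas 2.3.3, numpy 2.4.6 and, for loess, statsmodels 0.14.6.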

Additional observations from a re-analysis of the deposited data

How the results depend on the processing

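All 8 members stayed above 0 with loess centring, with the median difference subtracted, with an offset of 32 and with the mean of probe sets. The count past 2-fold was 2 in place of 1 with loess centring and with the median difference subtracted, since H2-Eb1 then lay just past 2-fold (1.04 with loess centring). The count past 1.5-fold was 4 to 6 under all alternatives. The median was 0.65 with the offset of 32, which lowers differences of dim genes most, and 0.73 to 0.80 under the others. With the offset, H2-Oa differed by 0.60 and Ciita by 0.43, and with loess centring Ciita by 0.55, below 1.5-fold. No alternative moved the median of all genes by over 0.1. No paired analysis was possible because each genotype has 1 array, and for the same reason no replicate could be left out. No detection call was used here, so values below the floor do not show that a gene was silent.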

Other observations

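The probe set that lists both H2-DMb1 and H2-DMb2, the near-identical beta chain genes of H2-DM, stood at 7.02 on the wildtype array and 7.64 on the impaired array, a log2 difference of 0.63. It was counted for neither gene. The alpha chain gene H2-DMa differed by 0.16.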
